A study of Mus musculus with 6 samples.

Results

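The genes described here were 10 genes of noncanonical Wnt and planar cell polarity signalling, chosen by name out of 23159 genes in the count table. They were the ligands *Wnt5a*, *Wnt5b* and *Wnt11*, the receptors *Ror1*, *Ror2* and *Ryk*, and the core polarity genes *Vangl1*, *Vangl2*, *Prickle1* and *Celsr1*. RNA was sequenced from label-retaining chondrocytes (LRCs) and non-label-retaining chondrocytes (non-LRCs) of the mouse growth plate, with 1 library of each in each of 3 experiments. LRCs kept a bright H2B-GFP label because they divided slowly, and non-LRCs had a middle to low label. The comparison asked how slow-cycling chondrocytes of the resting zone differ from the more rapidly cycling cells.

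Both groups came from the same Col2-Q mice, which were homozygous for Col2a1-tTA at Peli2, for TRE-H2B-GFP at Col1a1, for Col2a1-creER and for the tdTomato reporter at R26R. The mice were 49 days old, had doxycycline from day 21 to day 49 to shut off the H2B-GFP transgene, and had tamoxifen on days 46 and 47 to activate tdTomato. The *Col2a1* promoter drove both the label and the Cre recombinase, so that both sorts held cells in which this promoter had been active. Cells were CD45-negative and tdTomato-positive, and each experiment pooled several littermates. About 10000 cells were used for an LRC library and about 50000 for a non-LRC library.

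Noncanonical Wnt ligands act through Ror and Ryk receptors and do not need β-catenin. They steer cell shape, movement and the orientation of cells within a tissue plane, which the core polarity proteins set up by gathering on opposite sides of each cell. In the limb skeleton, *Wnt5a*, *Ror2* and *Vangl2* are known for the elongation of cartilage, and polarity of this kind is known for the ordering of chondrocytes into columns.

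The ratio of *Wnt11* to *Wnt5b* RNA was higher in LRCs, and that of *Ror2* to *Ror1* lower, within all 3 experiments. No test established these differences, and a link to promoter motifs was not tested. Promoter sequences are shown for *Wnt11* and *Wnt5b*, the ligands with the most RNA, and for *Ror1* and *Ror2*, the paired receptors. Each is the 250 bases before the most upstream RefSeq start of the gene, on GRCm38.p6, from 5′ to 3′ on the strand of the gene. Capitals mark the TCF/LEF core TCAAAG, the GC box GGGCGG and the TATA box TATAAA, each searched on both strands. The windows were chr7:98834862-98835111 (plus strand) for *Wnt11*, chr6:119544348-119544597 (minus strand) for *Wnt5b*, chr4:100095541-100095790 (plus strand) for *Ror1* and chr13:53286125-53286374 (minus strand) for *Ror2*.
Wnt11: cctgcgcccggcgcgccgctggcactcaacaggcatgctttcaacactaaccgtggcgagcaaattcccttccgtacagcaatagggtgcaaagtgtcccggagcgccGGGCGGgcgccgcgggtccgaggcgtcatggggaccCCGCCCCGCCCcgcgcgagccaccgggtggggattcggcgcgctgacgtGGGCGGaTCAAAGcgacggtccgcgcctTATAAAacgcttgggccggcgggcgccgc
Wnt5b: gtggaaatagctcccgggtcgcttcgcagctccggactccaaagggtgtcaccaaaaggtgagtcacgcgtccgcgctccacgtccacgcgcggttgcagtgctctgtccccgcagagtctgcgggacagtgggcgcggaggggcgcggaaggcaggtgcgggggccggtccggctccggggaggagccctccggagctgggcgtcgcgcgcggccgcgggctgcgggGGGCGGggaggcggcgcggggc
Ror1: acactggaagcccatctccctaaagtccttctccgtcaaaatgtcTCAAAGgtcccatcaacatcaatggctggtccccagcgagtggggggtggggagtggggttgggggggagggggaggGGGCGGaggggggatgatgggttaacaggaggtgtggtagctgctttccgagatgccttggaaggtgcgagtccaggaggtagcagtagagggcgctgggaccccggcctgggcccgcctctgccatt
Ror2: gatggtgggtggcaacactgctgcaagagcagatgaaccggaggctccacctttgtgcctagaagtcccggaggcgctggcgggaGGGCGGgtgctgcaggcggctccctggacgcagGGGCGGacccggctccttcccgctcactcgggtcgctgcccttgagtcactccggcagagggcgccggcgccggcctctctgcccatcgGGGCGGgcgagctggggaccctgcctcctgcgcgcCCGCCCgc

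The *Wnt11* window held a TATA box 29 bases and a TCF/LEF core 50 bases before the start, and 4 GC boxes, of which 2 overlapped each other by their last and first base. In *Ror1*, a TCF/LEF core lay 205 bases before the start, beside 1 GC box. *Ror2* and *Wnt5b* held GC boxes only, 4 and 1 of them. Matches of different motifs did not overlap. Among 32851 RefSeq promoters of the same length, 13.8% held a TCF/LEF core, 32.7% a GC box and 12.4% a TATA box. Of the 10 genes, 7 matched an entry, and all 7 held at least 1 GC box and had a GC content of 62.4% to 75.2%, against a median of 52.4% over all promoters. *Wnt5a*, *Vangl1* and *Celsr1* did not match.

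Total counts lay between 18943789 and 129559872 per library. The smallest was the LRC library of experiment 2, which stood apart with 1731 of the 13728 tested genes at 0 counts against 4 to 365 in the other libraries. Values for the 10 genes are therefore also given without experiment 2 where this moved them. The tissue label was checked against 13 chondrocyte markers, of which 12 were in the table and all 12 were detected, with a summed level of 90664 to 242467 CPM (counts scaled to the normalized size of the library) in the LRC libraries and 147891 to 259939 CPM in the others. Of these 12, 11 had a negative fitted log2 fold change, 10 were lower in LRCs in all 3 experiments, and 0 passed in edgeR, 4 in DESeq2 and 5 in limma-voom, all as lower. Markers of the articular superficial zone and synovium were higher in LRCs, at 1833 to 4022 CPM summed against 377 to 598 CPM, and 5 of 8 passed in edgeR. Fibroblast and perichondrium markers summed to 2464 to 4553 CPM in LRCs against 1682 to 2710 CPM, with 0 of 9 tested genes passing in edgeR. DESeq2 called 4 of them higher, *Col3a1*, *Dcn*, *Dpt* and *Pdgfra*, and 1 lower, *Postn*. *Postn* had little RNA in either group, at 0 in every LRC library and 0.687 to 0.845 CPM in the non-LRC libraries. Hypertrophic markers summed to 426 to 762 CPM in LRCs against 1067 to 2305 CPM, and 3 of 8 passed in edgeR as lower. Of the 8, *Runx2* was higher in LRCs in all 3 experiments. Without the pairing by experiment, edgeR called 1 of all tested genes, the superficial zone marker *Clu*, so that 0 of the hypertrophic calls were kept. Osteoblast markers summed to 627 to 1858 CPM in LRCs against 549 to 1863 CPM, with 1 higher and 3 lower of 8 in DESeq2 and 1 higher in edgeR, *Col1a1* (154, 53.0 and 113 CPM against 33.7, 8.20 and 23.3 CPM, log2 fold change 2.38, adjusted p = 0.0151). *Col1a1*, a collagen of bone and fibrous tissue, is named because it was the 1 edgeR call of this list, after its values were seen, and it did not pass without the pairing. The remaining lists overlapped between the groups and had 0 genes passing in edgeR, DESeq2 or limma-voom, with muscle markers at 5.74 to 11.0 against 9.24 to 14.7, and leukocyte and erythroid markers at 8.95 to 24.5 against 8.33 to 14.1. Endothelial and mural markers summed to 460 to 1368 CPM in LRCs against 454 to 1260 CPM. Nearly all of this was *Cspg4*, at 459 to 1368 CPM against 453 to 1260 CPM, whereas *Cdh5*, *Kdr* and *Emcn* were at 0 in every library.

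The 10 genes spanned a wide range of levels. Levels between genes were compared as counts per kilobase of exon scaled to the same sum in every library (TPM). By this measure *Wnt11* was highest, at 220 ± 21.5 TPM in LRCs and 121 ± 38.6 TPM in non-LRCs (means ± s.d. over 3 libraries). *Ryk* followed with 63.7 ± 11.0 TPM in LRCs and 88.2 ± 19.6 TPM in non-LRCs. *Ror2*, *Wnt5b* and *Prickle1* were intermediate, with means over all libraries of 37.2, 38.7 and 21.4 TPM. *Ror1*, *Vangl1* and *Wnt5a* were low, at 9.27, 7.66 and 3.73 TPM, and *Celsr1* and *Vangl2* were at 0.727 and 0.225 TPM. All 10 ranks over all libraries were the same when the longest transcript replaced the merged exons.

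The order differed between the groups at 2 places. *Ror2* ranked above *Wnt5b* in LRCs and below it in non-LRCs, and *Ror1* ranked above *Vangl1* in LRCs and below it in non-LRCs, but the ranges of the neighbours overlapped in each case. In LRCs, *Wnt11* lay above *Ryk* and *Wnt5b* above *Prickle1* with no overlap of libraries, whereas all other neighbours overlapped. In non-LRCs, *Prickle1* lay above *Vangl1*, *Wnt5a* above *Celsr1* and *Celsr1* above *Vangl2* with no overlap, and even *Wnt11* and *Ryk* overlapped.

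**Figure D1:**
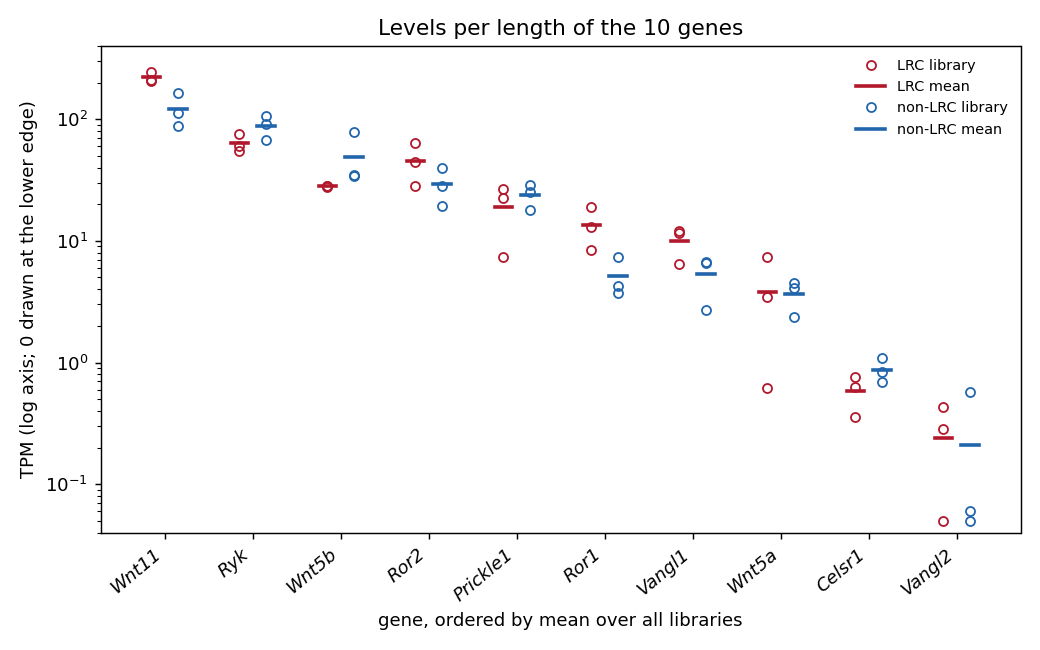
TPM on a log axis for the 10 genes, with open circles for the 3 LRC and 3 non-LRC libraries and bars for the group means. *Wnt11* lies at the top with a mean of 171 TPM over all libraries and *Vangl2* at the bottom with 0.225 TPM; values of 0 are drawn at the lower edge.

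LRCs and non-LRCs were compared for all 10 genes within experiments. Of these genes, 0 passed an adjusted p of 0.05 in the edgeR quasi-likelihood test, in which 1.28% of all 13728 tested genes passed. At an unadjusted p below 0.05 there were 6 of the 10, against 18.4% of all tested genes. DESeq2, the program of the study's own paired analysis, called 4 of them with the same pairing. These were *Wnt11*, *Ror1*, *Ror2* and *Vangl1*, all higher in LRCs, where DESeq2 called 12.3% of all genes, 6.16% as higher. limma-voom called *Wnt11* and *Ror1* as higher, where it called 9.91%, 5.22% as higher. In edgeR, *Ror1* alone of the 10 was called, as higher, when 10 counts were required in every library (6.75% of all genes called, 3.78% as higher) and without experiment 2 (5.37% called, 3.27% as higher). *Wnt11* alone was called, as higher, without experiment 3 (1.59% called, 0.99% as higher). In 4 of the 10, *Wnt11*, *Ror1*, *Vangl1* and *Wnt5b*, the libraries of the groups did not overlap in CPM, with 3 above and 1 below. This held for 18.7% of all genes, 8.41% above and 10.3% below. For *Vangl1* it did not hold in TPM. The difference had the same direction in all 3 experiments for 8 of the 10, with 4 higher and 4 lower in LRCs, against 46.4% of all genes, 20.4% higher and 26.0% lower. In bulk samples, fewer cells of a type and less RNA per cell cannot be told apart.

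**Figure D2:**
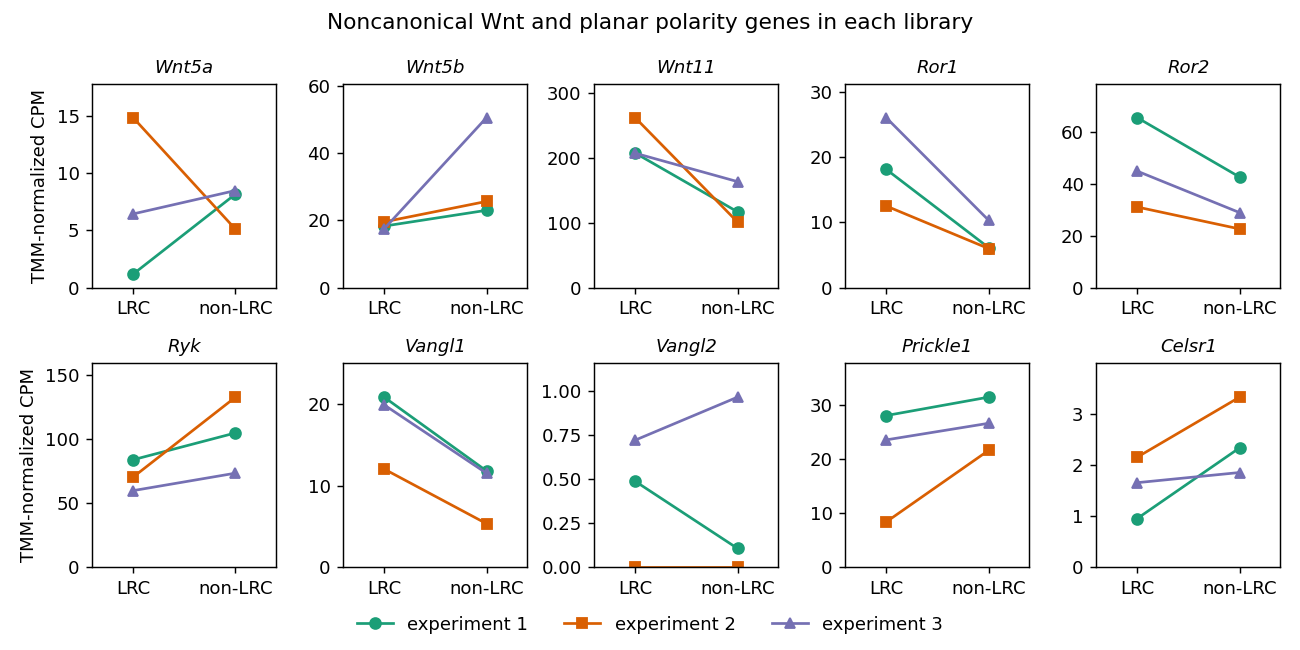
Normalized CPM of each gene in the 6 libraries, on linear axes that start at 0, with a line joining the LRC and non-LRC library of each experiment. The lines fall from LRC to non-LRC in all 3 experiments for *Wnt11*, *Ror1*, *Ror2* and *Vangl1*, rise in all 3 for *Wnt5b*, *Ryk*, *Prickle1* and *Celsr1*, and go both ways for *Wnt5a* and *Vangl2*.

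*Wnt11*, a secreted ligand of the noncanonical pathway, lies on chr7:98835112-98855195 (GRCm38, plus strand). In the order of experiments 1, 2 and 3, which is kept throughout, its level was 208, 263 and 208 CPM in the LRC libraries and 117, 101 and 164 CPM in the non-LRC libraries. Every LRC library lay above every non-LRC library. The means were 226 ± 31.6 CPM for LRCs and 127 ± 32.5 CPM for non-LRCs (*n*=3 libraries each), and the fitted log2 fold change was 0.85 (s.e. 0.22, 95% interval 0.31 to 1.38). The adjusted p was 0.124 in edgeR, 0.00565 in DESeq2 and 0.0163 in limma-voom. The paired log2 differences were 0.83, 1.37 and 0.34, smallest in experiment 3. Without experiment 3 the fitted value was 1.12 and the edgeR adjusted p was 0.0423, while without experiment 2 the value was 0.59 (edgeR adjusted p = 0.103). The edgeR adjusted p was 0.337 without experiment 1 and 0.379 without the pairing. A processed pseudogene on the opposite strand, *Gm8398*, shares 8.80% of the exon length of *Wnt11*, and the strand setting of the counting was not given in the sources used here.

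*Wnt5b*, a ligand known to regulate chondrocyte proliferation and maturation, lies on chr6:119432531-119544347 (minus strand) and went the other way. It was at 18.3, 19.5 and 17.5 CPM in the LRC libraries and at 23.0, 25.6 and 50.5 CPM in the non-LRC libraries. LRC libraries were close to each other and all lay below the non-LRC libraries, among which that of experiment 3 was far above the others. The fitted log2 fold change was −0.75 (s.e. 0.30, 95% interval −1.48 to −0.01), with an adjusted p of 0.267 in edgeR. The value was −0.97 without experiment 1 and −0.93 without experiment 2 (edgeR adjusted p = 0.407 and 0.120). Without experiment 3 it was −0.34 (edgeR adjusted p = 0.842). In the non-LRC library of experiment 3 the hypertrophic markers were highest, at 2305 CPM summed against 1067 and 1094 CPM in the other non-LRC libraries. Their part in the result was not tested.

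*Wnt5a*, the paralog of *Wnt5b* and a ligand of Ror2, lies on chr14:28504750-28527448 (plus strand). Its level was 1.18, 14.9 and 6.45 CPM in the LRC libraries, a wider spread than the 8.18, 5.11 and 8.49 CPM of the non-LRC libraries. The groups overlapped, and the paired log2 differences were −2.76, 1.54 and −0.40. The fitted value of −0.52 (s.e. 0.89, 95% interval −2.70 to 1.66, edgeR adjusted p = 0.795) therefore had no stable direction, and it was 0.57 without experiment 1 and −1.58 without experiment 2. An antisense gene, *Gm2670*, shares 4.58% of the exon length of *Wnt5a*.

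The opposite directions of *Wnt11* and *Wnt5b* showed as a shift in the make-up of the 3 ligands. Of their summed TPM, *Wnt11* held 87.7%, 87.3% and 87.1% in the LRC libraries and 74.5%, 70.4% and 66.3% in the non-LRC libraries. *Wnt5b* held 10.1% to 12.0% in LRCs and 22.8% to 31.9% in non-LRCs, and *Wnt5a* held at most 2.75% in any library. Per length, *Wnt11* RNA was 7.29, 8.62 and 7.62 times that of *Wnt5b* in the LRC libraries, and 3.27, 2.54 and 2.08 times in the non-LRC libraries. This ratio was chosen after the values were seen and is given with no test. It does not depend on the scaling of a library, since both genes were read from the same one.

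**Figure D3:**
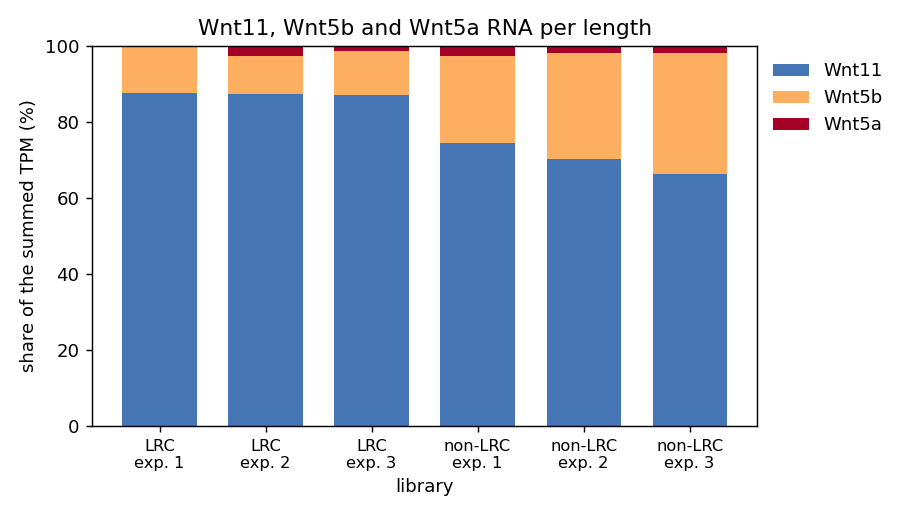
Stacked bars of the share of *Wnt11*, *Wnt5b* and *Wnt5a* in their summed TPM (%), 1 bar per library. *Wnt11* takes 87.1% to 87.7% in the 3 LRC libraries and 66.3% to 74.5% in the 3 non-LRC libraries.

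Among the receptors, *Ror1* had the largest fitted difference of the 10 genes. *Ror1*, a receptor of the Ror family that binds Wnt5a, lies on chr4:100095791-100444765 (plus strand). Its level was 18.1, 12.5 and 26.1 CPM in the LRC libraries and 6.15, 6.0 and 10.3 CPM in the non-LRC libraries. No library of one group reached the range of the other, and the means were 18.9 ± 6.80 and 7.50 ± 2.47 CPM (*n*=3 libraries each). The fitted level was 2.50-fold higher in LRCs, a log2 fold change of 1.32 (s.e. 0.27, 95% interval 0.66 to 1.98). The difference was close in size in the experiments, at 1.56, 1.06 and 1.33 on the log2 scale. The edgeR adjusted p was 0.0814 with all libraries, 0.0208 without experiment 2 and 0.0351 when genes needed 10 counts in every library. By DESeq2 and limma-voom it was 0.000446 and 0.00858. Without experiment 1 the edgeR adjusted p was 0.371, with a fitted value of 1.19. The edgeR adjusted p was 0.344 without experiment 3 and 0.361 without the pairing.

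*Ror2*, the second receptor of the family, which is known for its part in cartilage growth and digit formation, lies on chr13:53109312-53286124 (minus strand). Its level was 65.5, 31.1 and 44.9 CPM in the LRC libraries and 42.6, 22.6 and 28.9 CPM in the non-LRC libraries. The groups overlapped, because experiment 1 was high and experiment 2 low in both, but LRCs were above non-LRCs by 0.62, 0.46 and 0.63 on the log2 scale within the experiments. The fitted value was 0.57 (s.e. 0.17, 95% interval 0.15 to 0.99), with an adjusted p of 0.160 in edgeR and 0.0376 in DESeq2. Without the pairing by experiment, the edgeR adjusted p was 0.667. It was 0.569 without experiment 1, 0.0739 without experiment 2 and 0.538 without experiment 3.

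Both Ror genes had more RNA in LRCs in every experiment, and *Ror1* by the larger factor. Per length, *Ror2* RNA was 4.90, 3.37 and 2.34 times that of *Ror1* in the LRC libraries and 9.42, 5.12 and 3.80 times in the non-LRC libraries. Ranges overlapped across experiments, whereas the ratio was lower in LRCs within each, by 0.94, 0.60 and 0.70 on the log2 scale. The mean log2 difference was −0.75 ± 0.17 (s.d., *n*=3 pairs), and the exact two-sided sign-flip permutation test gave p = 0.25, the smallest that 3 pairs allow. *Wnt5b* to *Wnt5a*, compared in the same way, differed by 2.46, −1.93 and −1.13 (exact sign-flip permutation p = 1). *Vangl2* to *Vangl1* could be compared in 2 pairs only, with differences of 1.38 and −1.21. The p-values of these 3 ratios were not adjusted further, since none could pass 0.05.

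*Ryk*, a Wnt receptor without kinase activity, lies on chr9:102834917-102908305 (plus strand) and differed from the Ror genes in direction. It was at 84.0, 70.4 and 59.8 CPM in the LRC libraries and at 105, 133 and 73.5 CPM in the non-LRC libraries. The groups overlapped, while LRCs were lower within each experiment, by −0.32, −0.92 and −0.30 on the log2 scale. The fitted log2 fold change was −0.51 (s.e. 0.18, 95% interval −0.95 to −0.07, edgeR adjusted p = 0.218), and −0.31 without experiment 2.

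Of the core polarity genes, *Vangl1* was the one whose groups did not overlap in CPM. *Vangl1*, a membrane protein of the core complex, lies on chr3:102153583-102204693 (minus strand). It was at 20.9, 12.0 and 19.9 CPM in the LRC libraries and at 11.8, 5.34 and 11.5 CPM in the non-LRC libraries. The lowest LRC library, that of experiment 2, was barely above the highest non-LRC library, but its own partner was lower still. In TPM the groups overlapped. That LRC library was at 6.50 TPM, against 6.53 and 6.67 TPM in the non-LRC libraries of experiments 1 and 3. The log2 differences within experiments were 0.82, 1.17 and 0.79, and the fitted value was 0.93 (s.e. 0.26, 95% interval 0.28 to 1.57). The adjusted p was 0.146 in edgeR, 0.557 in edgeR without the pairing, and 0.0227 in DESeq2. Without experiment 2 the fitted value was 0.81 (edgeR adjusted p = 0.0725). The edgeR adjusted p was 0.496 without experiment 1 and 0.470 without experiment 3.

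*Vangl2*, the paralog known for the polarity of limb chondrocytes, lies on chr1:172000960-172028444 (minus strand) and had few counts. Its counts were 57, 0 and 31 in the LRC libraries and 11, 0 and 48 in the non-LRC libraries. A count of 0 allows up to 0.143 CPM in the LRC library of experiment 2 and 0.0785 CPM in its non-LRC partner, for counting error only. The fitted log2 fold change of 0.83 had an interval of −3.64 to 5.30 (edgeR adjusted p = 0.838), which covers large differences in either direction. Almost all *Vangl* RNA was *Vangl1*, as *Vangl2* was at most 0.0858 times as high per length in any library.

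*Prickle1*, the cytoplasmic partner of Vangl proteins, lies on chr15:93499114-93595891 (minus strand). It was at 28.1, 8.36 and 23.6 CPM in the LRC libraries and at 31.5, 21.6 and 26.6 CPM in the non-LRC libraries. Only the LRC library of experiment 2, the smallest one, stood apart, and the log2 differences were −0.17, −1.37 and −0.18. The fitted value was −0.56 (s.e. 0.31, edgeR adjusted p = 0.402), and −0.17 without experiment 2. *Celsr1*, an atypical cadherin that links the polarity complexes of neighbouring cells, lies on chr15:85898929-86033777 (minus strand) and had few counts, at 111, 45 and 71 in the LRC libraries and 241, 127 and 92 in the non-LRC libraries. In CPM it was lower in the LRC library of each pair, with overlapping groups and a fitted log2 fold change of −0.70 (s.e. 0.70, edgeR adjusted p = 0.646).

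**Figure D4:**
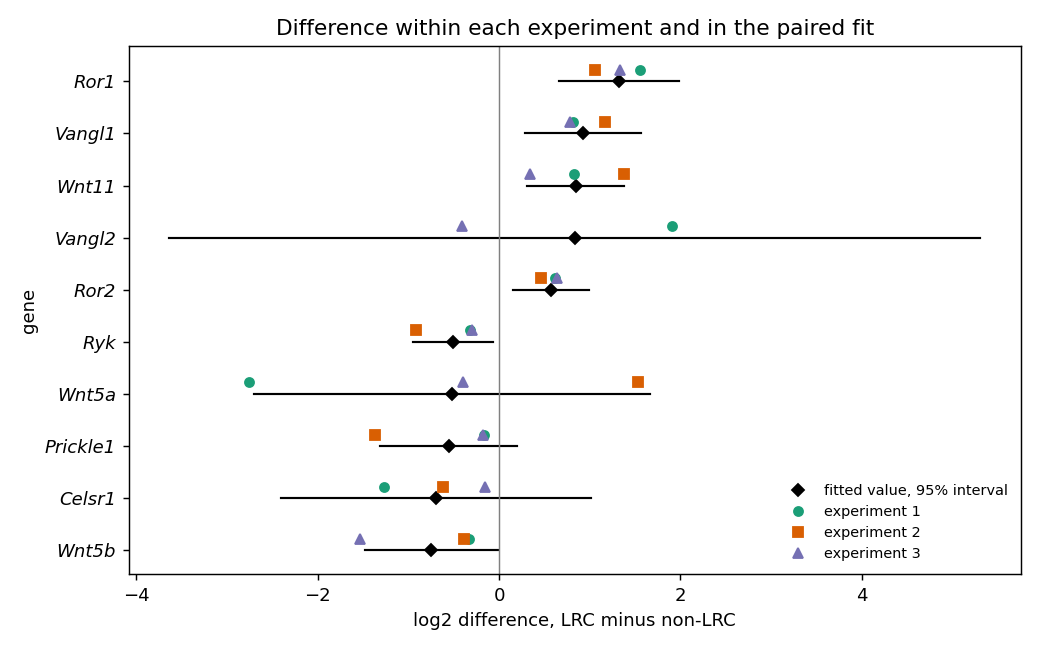
Log2 difference of LRC minus non-LRC for each gene, with colored symbols for the 3 experiments and black diamonds with lines for the value and 95% interval of the paired edgeR fit. The intervals of *Ror1*, *Vangl1*, *Wnt11* and *Ror2* lie above 0 and those of *Ryk* and *Wnt5b* below it, and that of *Vangl2* runs from −3.64 to 5.30; experiment 2 has no symbol for *Vangl2*, which had 0 counts in both of its libraries.

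The positive differences of *Wnt11*, *Ror1*, *Ror2* and *Vangl1* had the direction of the superficial zone markers, which summed to 1833 CPM or more in every LRC library and at most 598 CPM in every non-LRC library. The negative differences of *Wnt5b*, *Ryk*, *Prickle1* and *Celsr1* had the direction of the summed hypertrophic markers. Their sum was at most 762 CPM in LRC libraries and at least 1067 CPM in the others. Of these 8 markers, 6 were lower in LRCs in all 3 experiments, whereas *Runx2* was higher in all 3. *Mmp13* was higher in LRCs in experiment 1 only (165 against 78.0 CPM). Of the chondrocyte markers, 10 of 12 were lower in LRCs in all 3 experiments, the direction of *Wnt5b*, *Ryk*, *Prickle1* and *Celsr1*. *Sox9* was higher in LRCs in all 3. The part of these markers in the differences of the 10 genes was not tested.

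The 10 genes were set beside 64 other genes of the pathway in 6 lists, of which 62 were in the table and 58 were tested. Among these, 1 was higher and 1 lower in LRCs at an adjusted p below 0.05 in edgeR, where 1.28% of all tested genes passed. DESeq2 called 11 higher and 5 lower, where it called 12.3% of all genes. These shares are also the background of the counts per list. The median log2 fold change of the 58 was 0.20, that of the 10 genes was 0.03 and that of all tested genes was −0.10. Without the pairing, edgeR called 0 of the 58, where it called 1 of all 13728 tested genes. Without experiment 1 it also called 0 of the 58, where it called 35 of 13805.

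Of the 5 other ligands that were listed, most were at or near 0. Wnt genes outside the lists were not compared here. *Wnt4* was at 19.0, 24.4 and 27.2 CPM in the LRC libraries and at 35.6, 43.4 and 37.0 CPM in the non-LRC libraries, with no overlap (log2 fold change −0.73, s.e. 0.20, edgeR adjusted p = 0.138). *Wnt9a* was at 0 in both libraries of experiment 2, *Wnt7a* and *Wnt16* were at 0 in most libraries, and *Wnt9b* was at 0 in all. *Wnt4* and *Wnt9a* were the 2 that were tested. Neither passed in edgeR, whereas *Wnt4* passed as lower in DESeq2 (adjusted p = 0.0241) and limma-voom (adjusted p = 0.0434). These ligands are named here beyond the fixed rule, after their values were seen.

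Of 9 tested frizzled receptors and co-receptors, edgeR called 1 higher and 0 lower in LRCs, against 3 higher and 1 lower in both DESeq2 and limma-voom. *Gpc6*, a glypican that carries heparan sulfate on the cell surface, was at 477, 277 and 365 CPM in the LRC libraries and at 223, 164 and 156 CPM in the non-LRC libraries. All LRC libraries lay above all non-LRC libraries, and the fitted log2 fold change was 1.03 (s.e. 0.16, edgeR adjusted p = 0.0489). The edgeR adjusted p of *Gpc6* was 0.189 without experiment 1, 0.0149 without experiment 2 and 0.0699 without experiment 3. The list had a median of 0.58, and 8 of its 9 genes had a fitted value above 0.

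Of 10 tested core genes other than the members, 0 passed in edgeR, against 2 higher in DESeq2, and the median was 0.46. *Prickle2*, the paralog of *Prickle1*, was at 35.4, 28.4 and 20.2 CPM in the LRC libraries and at 11.6, 5.24 and 9.44 CPM in the non-LRC libraries (log2 fold change 1.71, s.e. 0.33, edgeR adjusted p = 0.0718). It did not overlap between groups, and its value was positive where that of *Prickle1* was negative. The Celsr paralogs also had fitted values of both signs. *Celsr2* was at 22.4, 21.8 and 16.3 CPM in the LRC libraries and at 16.3, 5.60 and 2.86 CPM in the non-LRC libraries (fitted log2 fold change 1.64, edgeR adjusted p = 0.141). *Celsr3* had 3, 0 and 0 counts in the LRC libraries and 93, 9 and 28 in the non-LRC libraries (edgeR adjusted p = 0.179), too few for a fold. Differences between paralogs of these families were not tested.

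In the Fat and Dachsous branch, a second polarity system of large cadherins, 0 of 5 tested genes passed in edgeR, against 2 higher and 1 lower in DESeq2. *Fjx1*, the counterpart of the fly kinase that modifies these cadherins, was at 43.3, 32.2 and 27.6 CPM in the LRC libraries and at 14.6, 11.5 and 14.7 CPM in the non-LRC libraries (fitted log2 fold change 1.32, edgeR adjusted p = 0.0628). *Dchs1*, the ligand cadherin, was at 7.19, 5.78 and 3.42 CPM in the LRC libraries and at 2.58, 0.288 and 1.13 CPM in the non-LRC libraries (fitted log2 fold change 2.37, s.e. 0.80, edgeR adjusted p = 0.204). *Fat1*, a cadherin of the Fat family, was at 32.2, 22.6 and 19.0 CPM in the LRC libraries and at 71.8, 37.2 and 31.3 CPM in the non-LRC libraries (fitted log2 fold change −0.87, edgeR adjusted p = 0.0937). *Fjx1* and *Dchs1* did not overlap between groups, whereas *Fat1* did.

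Among 19 tested effectors, edgeR called 0 higher and 1 lower, against 1 higher and 1 lower in both DESeq2 and limma-voom, with a median of 0.07. The gene that fell in edgeR, *Rspo3*, is a secreted R-spondin that amplifies Wnt signals at the cell surface and not an intracellular transducer as the other effectors are. It was at 3.19, 4.97 and 8.17 CPM in the LRC libraries and at 16.9, 20.1 and 26.4 CPM in the non-LRC libraries, with no overlap (log2 fold change −2.04, s.e. 0.29, edgeR adjusted p = 0.0440). The edgeR adjusted p of *Rspo3* was 0.189 without experiment 1, 0.0146 without experiment 2 and 0.0802 without experiment 3. In the calcium branch, 0 of 13 passed in edgeR, against 3 higher and 1 lower in DESeq2, and the median was −0.03. *Camk2b*, a calmodulin-dependent kinase subunit, had a log2 fold change of −1.09 (edgeR adjusted p = 0.0808). *Nfatc2* and *Ppp3ca*, a transcription factor and the calcineurin subunit that activates such factors, had values of 0.81 and 0.48 (edgeR adjusted p = 0.120 and 0.141).

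**Figure D5:**
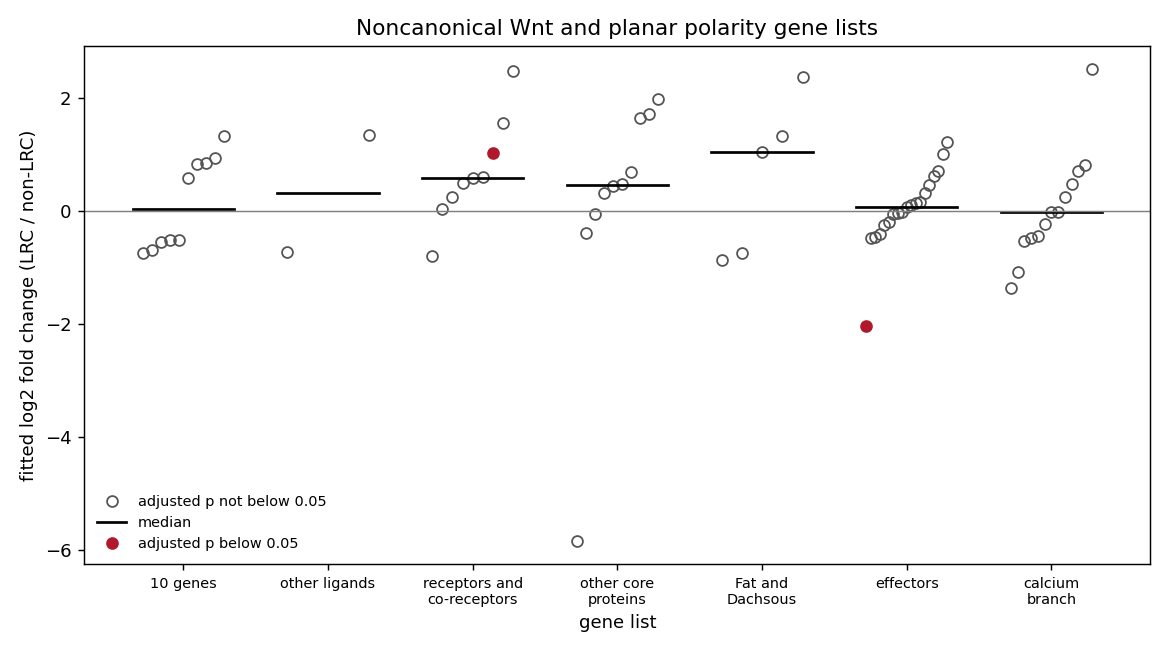
Fitted log2 fold change (LRC over non-LRC) of each tested gene in the 10 genes and 6 other pathway lists, with black bars for list medians and filled red points for an edgeR adjusted p below 0.05. The filled points are *Gpc6* at 1.03 and *Rspo3* at −2.04, and the lowest open point is *Celsr3*, whose fitted value rests on a group with 3, 0 and 0 counts.

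The genes most like the best expressed member of each class were sought over the 6 libraries by Pearson correlation, as a description only, since all values came from the same libraries. *Wnt11* was closest to *Aamp* (r = 0.996), *Apbb1* (0.994) and *Zfp410* (0.993). *Ryk* was closest to *Rhebl1* (0.985), *Sox11* (0.984) and *Tnn* (0.979), and *Prickle1* to *Pcyt1b* (0.999), *Il17rc* (0.998) and *Dsel* (0.998). None of these 9 genes passed the edgeR test between LRCs and non-LRCs.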

How the data were processed

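RNA-seq reads of 6 libraries were aligned by the authors to mm10 (GRCm38) with TopHat2 2.0.13 and Bowtie2 2.2.1, and non-ambiguous reads were counted per gene with HTSeq, per the study's methods and the submitters' processing notes. The gene annotation and strand setting were not given in the sources used here. The authors deposited raw counts per gene, which were used, and size-factor-normalized and rlog tables, which were not. Single-end reads came from amplified cDNA, and no molecular identifiers are named in the sources used here, so that count limits cover counting error only.

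Counts were fitted in R 4.3.3 with edgeR 4.0.16 (TMM, filterByExpr with a minimum count of 10 and total of 15, quasi-likelihood test) with the experiment as a block. The study's own paired analysis used DESeq2 with a term for the mouse of origin, and DESeq2 was an alternative here. Benjamini-Hochberg adjustment ran over 13728 genes, with a threshold of 0.05. CPM were TMM-normalized, and log2 differences within an experiment used a prior count of 2. TPM used merged exons of GENCODE vM21 on GRCm38, where 20786 symbols matched directly, 1917 by an older symbol and 456 not. Libraries were paired by the experiment number in their labels. Same-numbered LRC and non-LRC libraries deviated together weakly (r = 0.197, 0.288 and 0.336 across genes). Differently numbered ones had r from −0.2742 to 0.1275. Each pair comes from separate pooled littermates. The edgeR fit was run on simulated counts with known changes, and the DESeq2 and limma-voom fits were not.

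Alternatives were no block, DESeq2 1.42.0 or limma-voom (limma 3.58.1) with the block, DESeq2 size factors, no filter, 10 counts in every library, thinned libraries and each experiment left out. The 10 genes, the pathway lists (other ligands, receptors and co-receptors, core proteins, Fat and Dachsous, effectors, calcium) and the marker lists were chosen with earlier results of these data known. All 10 genes were named. Of the other pathway genes, those passing the test were named, and otherwise the 3 with the smallest p in lists with at least 3 tested genes.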

Additional observations from a re-analysis of the deposited data

How the results depend on the processing

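The number of genes called by edgeR was 176 over all genes, 0 of the 10 and 2 of the other pathway genes. These numbers were 1692, 4 and 16 with DESeq2, 1361, 2 and 13 with limma-voom, 751, 1 and 8 with at least 10 counts in every library, 1, 0 and 0 with no replicate block, and 35 to 782, 0 to 1 and 0 to 10 with 1 experiment left out. DESeq2 size factors, no filter and thinned libraries called 200, 256 and 229 genes and 0 of the 10. With no replicate block, the calls of *Gpc6*, *Rspo3*, *Col1a1*, 4 of the 5 superficial zone markers and all 3 hypertrophic markers were lost, and *Wnt5a* was at 0.037 on the log2 scale. With 1 experiment left out, *Wnt5a* ranged from −1.58 to 0.57 and *Vangl2* from −0.38 to 0.85. The other 8 genes kept their direction under every alternative that gave a value. They are the 8 with the same direction in all 3 experiments, so that leaving 1 out could hardly reverse them. The mean log2 ratio of *Wnt5b* to *Wnt5a* was −0.20, and −1.53, 0.66 and 0.26 without experiments 1, 2 and 3. That of *Vangl2* to *Vangl1* was 0.083, and −1.21 and 1.38 without experiments 1 and 3. The cause of these changes was not tested. DESeq2 size factors moved the median of all genes by 0.009. The ratio of *Wnt11* to *Wnt5b* was added after seeing the data. *Vangl2* had 0 counts in both libraries of experiment 2, which allows up to 0.143 CPM in the LRC and 0.0785 CPM in the non-LRC library.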
